A study of Mus musculus with 6 samples.

Results

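The 9 transcription factor genes that mark the birth, class and receptor choice of vomeronasal neurons were measured in the vomeronasal organ of wild-type and Cnpy1 knockout mice. They are Neurog1, Neurod1, Lhx2, Ebf1, Emx2, Bcl11b, Tfap2e, Meis2 and Atf5, 9 of 35450 genes in the table. They are a list of names grouped by role. Poly(A) RNA came from 6 littermates at postnatal day 60, 3 with the genotype Cnpy1+/+ (wild type) and 3 with Cnpy1-/- (knockout). Each genotype had 2 males and 1 female, and 1 library held both organs of 1 mouse. Wild-type replicate 2 and knockout replicate 3 are the females. The design of the knockout allele, and the cells in which it acts, are not given in the sources used here. The labels name no treatment.

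Vomeronasal neurons are replaced throughout life from precursors at the margins of the organ's epithelium. Basic helix-loop-helix factors start the neuronal programme, with Neurog1 acting before Neurod1. The young neurons then become apical cells, which carry the G protein subunit gene Gnai2, V1R receptors and Meis2, or basal cells, which carry Gnao1, V2R receptors and Tfap2e. Lhx2, Ebf1 and Emx2 are factors of olfactory-type neurons in general, and Bcl11b is needed for normal differentiation of vomeronasal neurons. Atf5 is made in receptor-expressing neurons, where stress of the endoplasmic reticulum raises its translation.

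The DNA just upstream of 3 members is shown because the 2 birth factors read E boxes, the sites of helix-loop-helix proteins, and because Tfap2e had the smallest p of the members. Each is the part of the RefSeq promoter window (build GRCm38.p6) that lies before the first annotated exon in GENCODE M21, written 5′ to 3′ on the strand of the gene. All 3 genes lie on the minus strand. Capitals mark the E box, CANNTG, searched on both strands.
Neurog1, chr13:56252164-56252430: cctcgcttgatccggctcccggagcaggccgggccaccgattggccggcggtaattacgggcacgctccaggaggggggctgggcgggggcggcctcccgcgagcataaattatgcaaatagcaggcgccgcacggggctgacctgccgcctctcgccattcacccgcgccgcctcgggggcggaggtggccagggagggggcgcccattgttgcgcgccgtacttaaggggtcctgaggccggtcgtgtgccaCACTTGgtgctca
Neurod1, chr2:79456752-79456886: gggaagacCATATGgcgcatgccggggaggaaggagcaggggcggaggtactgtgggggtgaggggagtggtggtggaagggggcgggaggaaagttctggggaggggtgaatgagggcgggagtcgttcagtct
Tfap2e, chr4:126736241-126736519: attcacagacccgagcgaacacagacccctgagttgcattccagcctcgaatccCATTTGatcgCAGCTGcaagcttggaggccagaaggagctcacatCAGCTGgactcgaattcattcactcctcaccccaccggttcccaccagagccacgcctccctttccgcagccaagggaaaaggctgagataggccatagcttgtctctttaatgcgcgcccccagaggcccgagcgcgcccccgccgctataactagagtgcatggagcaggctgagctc
The stretch of 267 bases before Neurog1 held 1 E box, the stretch of 135 bases before Neurod1 held 1, and the stretch of 279 bases before Tfap2e held 3, of which 2 read CAGCTG. The Neurog1 stretch also held TAATTA, a core bound by many homeodomain factors. All 9 members had at least 1 promoter window of 300 bases, 12 windows in all. An E box occurred in 6 of the 12 windows and in 72.3% of all 32817 windows of that length. TAATTA occurred in 2 of the 12 windows, against 5.3% of all windows, and the Tfap2 core GCCNNNGGC in 2, against 16.6%. The Meis core TGACAG occurred in 1, against 19.2%. The Ebf palindrome, TCCC and GGGA separated by any 2 bases, occurred in 0, against 0.905%. These matches describe the sequence and do not show that a factor binds there.

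The libraries held between 60969508 and 71670766 estimated reads. Cnpy1, the check of the labels, had 280, 303 and 325 CPM (reads relative to all reads in the genes tested, scaled by TMM) in wild type and 67.2, 77.6 and 76.3 CPM in the knockouts. Defining genes of the vomeronasal organ were present in every library, Omp at 888 CPM or more and the 121 V2R genes together at 3409 CPM or more. Main olfactory neuron markers summed to between 477 and 524 CPM in the wild types and between 460 and 524 CPM in the knockouts, with 0 of 6 called. Rtp1 made up most of that sum. Gnal and Cnga2, transduction genes of main olfactory neurons, varied more, from 19.3 to 55.7 CPM and from 8.83 to 22.0 CPM, with knockout replicate 3 the lowest and knockout replicate 2 the highest library for both. Their part in the values of the members was not tested. All 9 members passed the filter on low counts. They had from 74 reads, Neurog1 in wild-type replicate 1, to 74867 reads, Atf5 in wild-type replicate 3.

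The members spanned a wide range of abundance. Compared per transcript length, in the deposited TPM, which corrects for length, the wild-type level was 809 ± 63.0 for Atf5, 118 ± 19.5 for Meis2, 86.4 ± 9.06 for Ebf1, 68.0 ± 10.9 for Emx2 and 65.4 ± 9.62 for Lhx2 (SD, n = 3 each). It was 20.6 ± 1.56 for Tfap2e, 5.44 ± 0.418 for Bcl11b, 4.43 ± 1.10 for Neurod1 and 1.60 ± 0.684 for Neurog1 (SD, n = 3 each). Among the 16679 genes tested, Atf5 stood at percentile 99.4 of wild-type TPM and Neurog1 at percentile 18.6. The wild-type ranges of Ebf1 and Emx2, of Emx2 and Lhx2, and of Bcl11b and Neurod1 overlapped between mice. Within each wild-type library, Ebf1 was above Emx2, Emx2 above Lhx2 and Bcl11b above Neurod1. In the knockout the order of the means was the same outside those neighbours, with Lhx2 above Emx2 and Neurod1 above Bcl11b within overlapping ranges. Neither of these knockout orders held in every knockout library.

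None of the 9 members differed between genotypes at an adjusted p under 0.05 in edgeR's quasi-likelihood test, so 0 of 9 were called. Over all genes tested the share called was 0.761%, made of 0.683% that fell and 0.0779% that rose. At an unadjusted p under 0.05 there were 2 members, Tfap2e and Atf5, and 10.5% of all genes. DESeq2 also called 0 members, against 2.27% of its genes, with 5 members at an unadjusted p under 0.05, against 9.56%. Limma-voom called 0 members, against 0.719%, with 4 at an unadjusted p under 0.05, against 10.4%. The median log2 fold change was -0.04 over the members and 0.01 over all genes, with 5 members below 0 and 4 above. For 3 members, Tfap2e, Atf5 and Meis2, the CPM ranges of the genotypes did not overlap, and the background over all tested genes was 16.2%. The knockouts were lower for 2 of them, against 8.95% of genes, and higher for 1, against 7.22%. In the deposited TPM, which carries no TMM scaling, it held for Tfap2e alone, and for 9.92% of all genes. The organ was measured in bulk, so fewer cells of a type and less RNA per cell cannot be told apart.

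**Figure D1:**
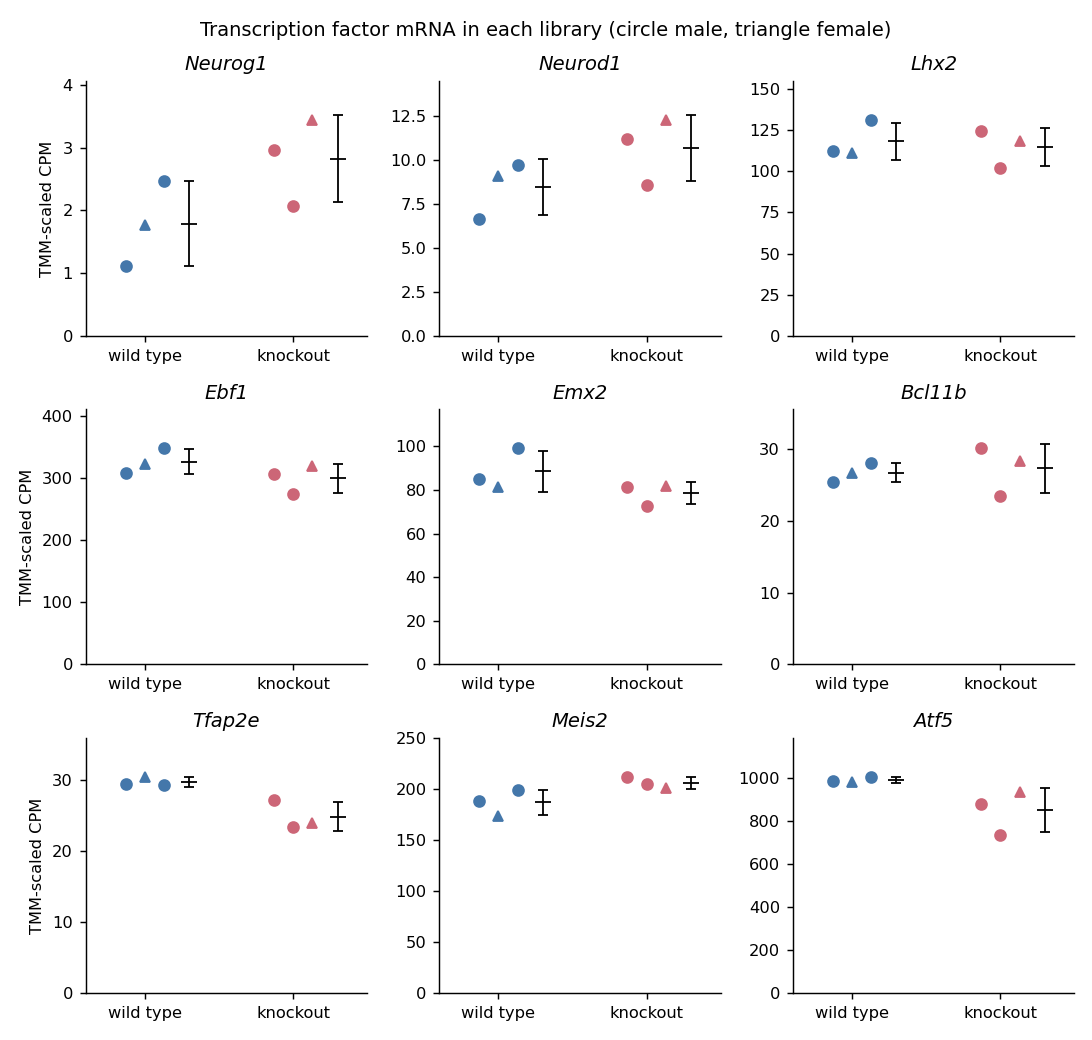
TMM-scaled CPM (vertical axis) of the 9 transcription factor genes in each library, by genotype (horizontal axis), with circles for males, triangles for females and bars for mean ± SD of 3 mice. The genotypes are separate for Tfap2e, Meis2 and Atf5 and overlap for the other members, with Neurog1 between 1.12 and 2.47 CPM in the wild types and between 2.07 and 3.44 CPM in the knockouts.

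The basal factor Tfap2e had the smallest p of the members. This AP-2 family factor maintains the identity of basal neurons. Its level was 29.4, 30.4 and 29.2 CPM in the 3 wild types and 27.1, 23.4 and 23.9 CPM in the 3 knockouts. The wild types lay close together, and each knockout lay below each of them. The knockout mean was 83.6% of the wild-type mean, a log2 fold change (knockout over wild type, as throughout) of -0.26 (SE 0.07, 95% interval -0.42 to -0.10, edgeR adjusted p = 0.230). The adjusted p was 0.0967 with DESeq2 and between 0.149 and 0.575 under the other alternatives. In deposited TPM the libraries had 18.9, 21.8 and 21.2 in wild type and 17.9, 14 and 17.2 in the knockout, which also do not overlap.

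Other genes of basal neurons lay on both sides of Tfap2e in the size of their difference. Gnao1, the G protein subunit of these cells, fell from 310 ± 8.48 to 234 ± 8.08 CPM (SD, n = 3 each), to 75.3% of wild type (edgeR adjusted p = 0.0143). Gnao1 was called in 1 of the 6 fits without 1 library (edgeR adjusted p from 0.0394 to 0.0854), with log2 fold changes between -0.43 and -0.38, and it was not called without scaling factors or in males only. The V2R genes together held 5615 ± 313 CPM in the wild types and 3732 ± 293 CPM in the knockouts (SD, n = 3 each), 66.5% of wild type. Of 8 listed basal markers, Gnao1, Vmn2r1, Vmn2r7 and H2-M10.3 fell, 0 rose, and the median log2 fold change was -0.46. At an unadjusted p under 0.05 in edgeR there were 7 of the 8, against 10.5% of all genes tested. For 7 of the 8 each knockout lay below each wild type, against 8.95% of genes. Vmn2r1 was called in all 6 fits without 1 library, H2-M10.3 in 5 and Vmn2r7 in 3, and Vmn2r7 was not called in males only or with the length offset. Robo2, an axon guidance receptor of basal neurons, had a value of -0.21 (edgeR adjusted p = 0.272) and Kirrel3, a cell adhesion molecule, a value of 0.00 (edgeR adjusted p = 0.996). Within each library, the log2 ratio of Tfap2e to Gnao1 was -3.38, -3.33 and -3.45 in wild type and -3.14, -3.27 and -3.31 in the knockout. All knockouts were above the wild types, by 0.15 on average (two-sided exact permutation p = 0.1, the smallest that 3 against 3 mice can give, and 0.2 adjusted over the 4 ratios). In deposited TPM the difference was also 0.15, with an exact permutation p of 0.2.

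The apical factor Meis2, a homeodomain protein, lay on the other side. It had 188, 174 and 199 CPM in the wild types and 212, 205 and 201 CPM in the knockouts. The knockouts were all above the wild types, although the lowest knockout and the highest wild type differed little. The knockout mean was 110% of the wild-type mean, a log2 fold change of 0.14 (SE 0.06, 95% interval -0.00 to 0.29, edgeR adjusted p = 0.487). The value was 0.22 when effective transcript length entered as an offset, and without wild-type replicate 2 it was 0.09. In deposited TPM the genotypes overlapped, with 106, 108 and 141 in wild type and 137, 110 and 146 in the knockout. Gnai2, the apical G protein subunit, had a similar log2 value of 0.17 (95% interval 0.03 to 0.32, edgeR adjusted p = 0.377). The log2 ratio of Meis2 to Gnai2 was -1.86, -1.85 and -1.64 in wild type and -1.82, -1.76 and -1.87 in the knockout, and these overlapped (two-sided exact permutation p = 0.8). Of 5 apical markers, 0 were called, 3 lay above 0 and the median was 0.04, and the 5 did not lie on one side. Kirrel2, a cell adhesion molecule, had 312, 341 and 250 CPM in the wild types and 194, 168 and 231 CPM in the knockouts, which did not overlap, a log2 fold change of -0.61 (95% interval -0.93 to -0.29, edgeR adjusted p = 0.143). This is the largest change of the apical list by size, and its sign is opposite to that of Meis2 and Gnai2. Nrp2, an axon guidance receptor, had a value of 0.09 (edgeR adjusted p = 0.711) and Pde4a, a phosphodiesterase, a value of -0.07 (edgeR adjusted p = 0.819). The summed 199 V1R genes held 2543 ± 208 CPM in the wild types and 2726 ± 170 CPM in the knockouts (SD, n = 3 each), 107% of wild type. The genotypes overlapped, with wild-type replicate 3 above knockout replicates 1 and 2.

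The ratio of the basal to the apical factor gives the size of their combined difference within a library. The log2 ratio of Tfap2e to Meis2 was -2.68, -2.52 and -2.77 in wild type and -2.97, -3.14 and -3.07 in the knockout. The means were -2.65 ± 0.126 and -3.06 ± 0.086 (SD, n = 3 each), a difference of -0.40. Each factor alone already separated the genotypes in CPM, in opposite directions, so this ratio had to separate them as well, and its exact permutation p of 0.1 (two-sided, 0.2 adjusted over the 4 ratios) was fixed by that and adds no support. A ratio of this kind does not depend on the scaling between libraries. Neither factor was called on its own.

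**Figure D2:**
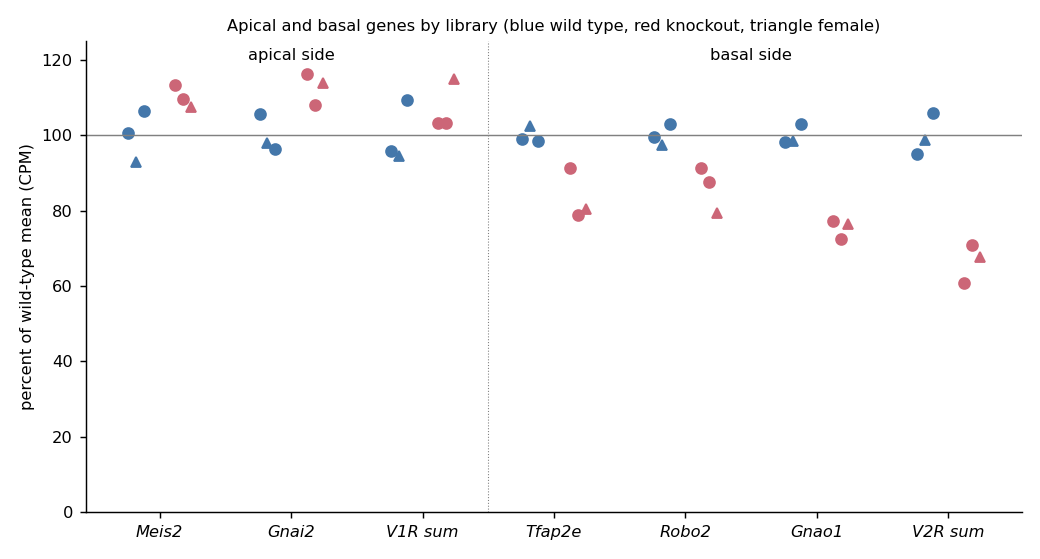
CPM of apical genes (left of the dotted line) and basal genes (right) in each library, as a percent of the wild-type mean (vertical axis), with wild type in blue, knockout in red and triangles for females. The knockouts lie above 100 for Meis2 and below it for Tfap2e, Robo2, Gnao1 and the V2R sum, whose mean was 66.5% of wild type. The apical list also holds Kirrel2 (log2 fold change -0.61), Pde4a (-0.07) and Nrp2 (0.09), which are not shown. The basal list also holds Kirrel3 (0.00) and H2-M10.3 (-0.59), which are not shown either.

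**Figure D3:**
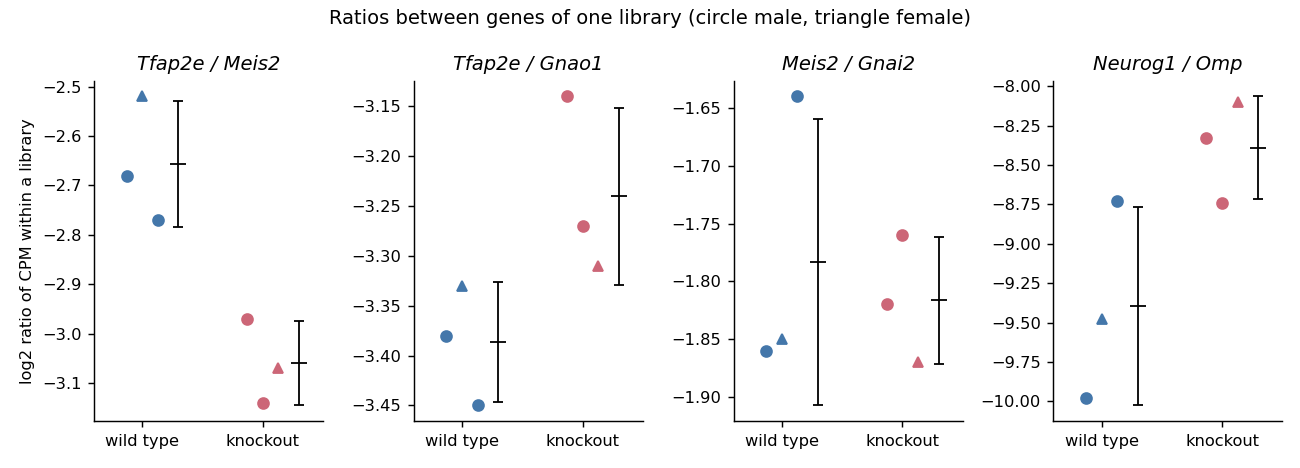
Log2 ratio of the CPM of 2 genes within a library (vertical axis) by genotype (horizontal axis), with circles for males, triangles for females and bars for mean ± SD of 3 mice. The genotypes do not overlap for Tfap2e to Meis2 and for Tfap2e to Gnao1 and overlap for the other ratios.

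Bcl11b, a zinc finger factor, had nearly the same level in both genotypes. It had 25.4, 26.7 and 28.0 CPM in the wild types and 30.1, 23.5 and 28.3 CPM in the knockouts. The highest and the lowest library were both knockouts. The log2 fold change was 0.03 (95% interval -0.18 to 0.25, edgeR adjusted p = 0.944). Without knockout replicate 1 the sign changed, to -0.04. Bcl11b is also a T cell gene. T cell markers summed to between 16.9 and 18.4 CPM in the wild types and between 16.4 and 19.4 CPM in the knockouts, with 0 of 7 called, 5 above 0, a median log2 fold change of 0.29 and none at 0 reads in any library. Cd247 and Cd4, named with Cd8a here after their values were seen, made up most of this sum. The genes for chains of the T cell receptor complex did not lie on one side. Cd247 had a log2 value of -0.25 (95% interval -0.48 to -0.03, edgeR adjusted p = 0.411), and its genotypes did not overlap. Cd3e (0.51), Cd3d (0.72) and Cd3g (0.57) lay above 0 with 95% intervals that held 0. The coreceptor gene Cd8a lay below 0 (-0.49), also with an interval that held 0. The coreceptor gene Cd4 lay above 0 (0.19, 95% interval -0.04 to 0.42), and its genotypes did not overlap. The part of T cells in the Bcl11b reads was not tested.

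The birth factors were the members with the largest fold changes and the widest intervals. Neurog1, which commits precursors to the neuronal lineage, had 1.12, 1.77 and 2.47 CPM in the wild types, from 74, 110 and 184 reads, and 2.96, 2.07 and 3.44 CPM in the knockouts, from 177, 121 and 231 reads. Knockout replicate 2 lay within the wild-type range and the other two knockouts lay above it. The log2 fold change was 0.66 (SE 0.30, 95% interval -0.03 to 1.35, edgeR adjusted p = 0.499). Leaving out 1 library moved it from 0.41, without wild-type replicate 1, to 0.97, without wild-type replicate 3, and without knockout replicate 2 it was 0.84. Neurod1, which acts after it in the maturing precursor, had 6.68, 9.09 and 9.71 CPM in the wild types and 11.2, 8.62 and 12.3 CPM in the knockouts. The pattern was the same, with wild-type replicate 1 lowest and knockout replicate 3 highest for both genes. Its log2 fold change was 0.34 (SE 0.17, 95% interval -0.06 to 0.73, edgeR adjusted p = 0.554), and between 0.19, without wild-type replicate 1, and 0.47, without knockout replicate 2, when 1 library was left out.

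Neighbouring steps of the lineage were read from the listed genes. Of 17 birth and precursor factors, 14 were tested, 0 were called, 11 lay above 0 and the median was 0.15. At an unadjusted p under 0.05 there were 4 of the 14, against 10.5% of all genes tested. Sox2, a factor of neural precursors, had a log2 fold change of 0.19 (edgeR adjusted p = 0.539). Sox2 is also counted in the list of supporting and basal epithelial markers, so its value is not particular to precursors. Pax6, a paired-box factor of the olfactory placode lineage, had a value of 0.15 (edgeR adjusted p = 0.468). Dividing cell genes summed to between 96.4 and 105 CPM in the wild types and between 111 and 126 CPM in the knockouts. Of 6, Top2a, a topoisomerase of dividing cells, rose (log2 fold change 0.40, edgeR adjusted p = 0.0421) and 0 fell, and Mki67 had a value of 0.51 (edgeR adjusted p = 0.0646). Top2a was called in 0 of the 6 fits without 1 library (edgeR adjusted p from 0.0877 to 0.195) and was lost without scaling factors, in males only, with a replicate block and with the length offset. Its part in the birth factor values was not tested. Immature neuron markers had a median of 0.04 over 6 genes, with 0 called, and included Gap43 (0.13), Stmn2 (0.04) and Dcx (0.05). Tubb3, a tubulin gene of neurons, had the largest value of that list by size, -0.16 (95% interval -0.32 to -0.01, edgeR adjusted p = 0.438), and its genotypes did not overlap. Mature neuron markers had a median of -0.32 over 5 genes, and Stom fell (-0.36, edgeR adjusted p = 0.0356), a call made in 0 of the 6 fits without 1 library and lost without scaling factors, in males only and with a replicate block.

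Relative to Omp, a marker of mature olfactory-type neurons, Neurog1 had log2 ratios of -9.98, -9.48 and -8.73 in wild type and -8.33, -8.74 and -8.10 in the knockout. Knockout replicate 2 and wild-type replicate 3 nearly coincided. The difference of the means was 1.01 (two-sided exact permutation p = 0.2, and 0.267 adjusted over the 4 ratios). Omp itself had a log2 fold change of -0.31 (edgeR adjusted p = 0.203).

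None of the 3 general olfactory factors was called between genotypes. Lhx2, a LIM homeodomain factor, had 112, 111 and 131 CPM in the wild types and 124, 102 and 118 CPM in the knockouts. Ebf1, which binds the olfactory gene motif known as the O/E site, had 309, 323 and 348 CPM in the wild types and 306, 274 and 319 CPM in the knockouts. Emx2, another homeodomain factor, had 84.9, 81.5 and 99.0 CPM in the wild types and 81.1, 72.7 and 81.6 CPM in the knockouts. In all 3 genes wild-type replicate 3 was the highest library and knockout replicate 2 the lowest, and the genotypes overlapped. The log2 fold changes were -0.04 for Lhx2 (95% interval -0.25 to 0.18), -0.12 for Ebf1 (-0.30 to 0.05) and -0.17 for Emx2 (-0.37 to 0.02), with edgeR adjusted p of 0.939, 0.631 and 0.529. Emx2 ranged from -0.26, in males only, to -0.08, without wild-type replicate 3. Ebf1 ranged from -0.18, in males only, to -0.06, without knockout replicate 2. In edgeR, Emx2 had an unadjusted p under 0.05 in males only, with a replicate block, with the length offset and without wild-type replicate 2. It was called in none of these. Lhx2 changed sign, to 0.04, without wild-type replicate 3 or without knockout replicate 2.

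Ebf1 is also made by B cells and fibroblasts. B cell markers summed to between 2.87 and 3.28 CPM in the wild types and between 3.05 and 4.82 CPM in the knockouts, with 5 of 6 tested and 0 called. All 5 lay above 0, with a median log2 fold change of 0.35. Fibroblast and mural cell markers summed to between 2912 and 4487 CPM in the wild types and between 3145 and 4503 CPM in the knockouts, with 0 of 7 called. The part of these cells in the Ebf1 reads was not tested. Among the 18 maturation and pan-neuronal factors tested, 0 were called and the median was 0.01. Ebf2 (-0.17, 95% interval -0.29 to -0.04), Ebf3 (-0.07), Ebf4 (-0.27) and Ldb1, the cofactor of Lhx2 (0.02), had edgeR adjusted p of 0.323, 0.803, 0.555 and 0.939.

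Atf5 was the most abundant member. It had 987, 981 and 1005 CPM in the wild types and 878, 735 and 934 CPM in the knockouts. The wild types lay within a narrow range and all knockouts below it, with knockout replicate 2 the furthest. The knockout mean was 85.7% of the wild-type mean, a log2 fold change of -0.22 (SE 0.09, 95% interval -0.43 to -0.02, edgeR adjusted p = 0.427). Without knockout replicate 2 the value was -0.13, and in deposited TPM the genotypes overlapped, with 741, 823 and 864 in wild type and 678, 515 and 793 in the knockout. Knockout replicate 2 had the lowest CPM of all libraries for 6 of the 9 members, and for 15.6% of all genes tested.

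Atf5 takes part in a feedback in which a chosen receptor slows further choice, and the other genes of that feedback were measured. Of 11 listed genes, all were tested, 0 were called and the median was 0.06. The histone demethylase gene Kdm1a had a log2 fold change of 0.00, the stress kinase gene Eif2ak3 a value of -0.14, its substrate gene Eif2s1 a value of 0.06 and the related factor Atf4 a value of 0.05. Their edgeR adjusted p lay between 0.640 for Eif2ak3 and 0.991 for Kdm1a. Of 6 mitochondrial stress genes linked to Atf5, 0 were called, and Hspd1 (0.00), Hspe1 (0.03), Hspa9 (0.03) and Lonp1 (0.00) lay close to 0. Levels of mRNA do not report the translation of Atf5.

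Close relatives of the class factors were examined next to them. Of 13 listed relatives 11 were tested, 0 were called and the median was 0.05. Tfap2a, an AP-2 factor of epithelial cells, had a log2 fold change of 0.24 (95% interval 0.02 to 0.47, edgeR adjusted p = 0.435), the opposite sign to Tfap2e, and 6.04, 5.93 and 6.85 CPM in the wild types against 7.39, 7.02 and 7.87 CPM in the knockouts. Tfap2c had a value of 0.19 (edgeR adjusted p = 0.695). Tfap2b and Tfap2d did not pass the filter on low counts.

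**Figure D4:**
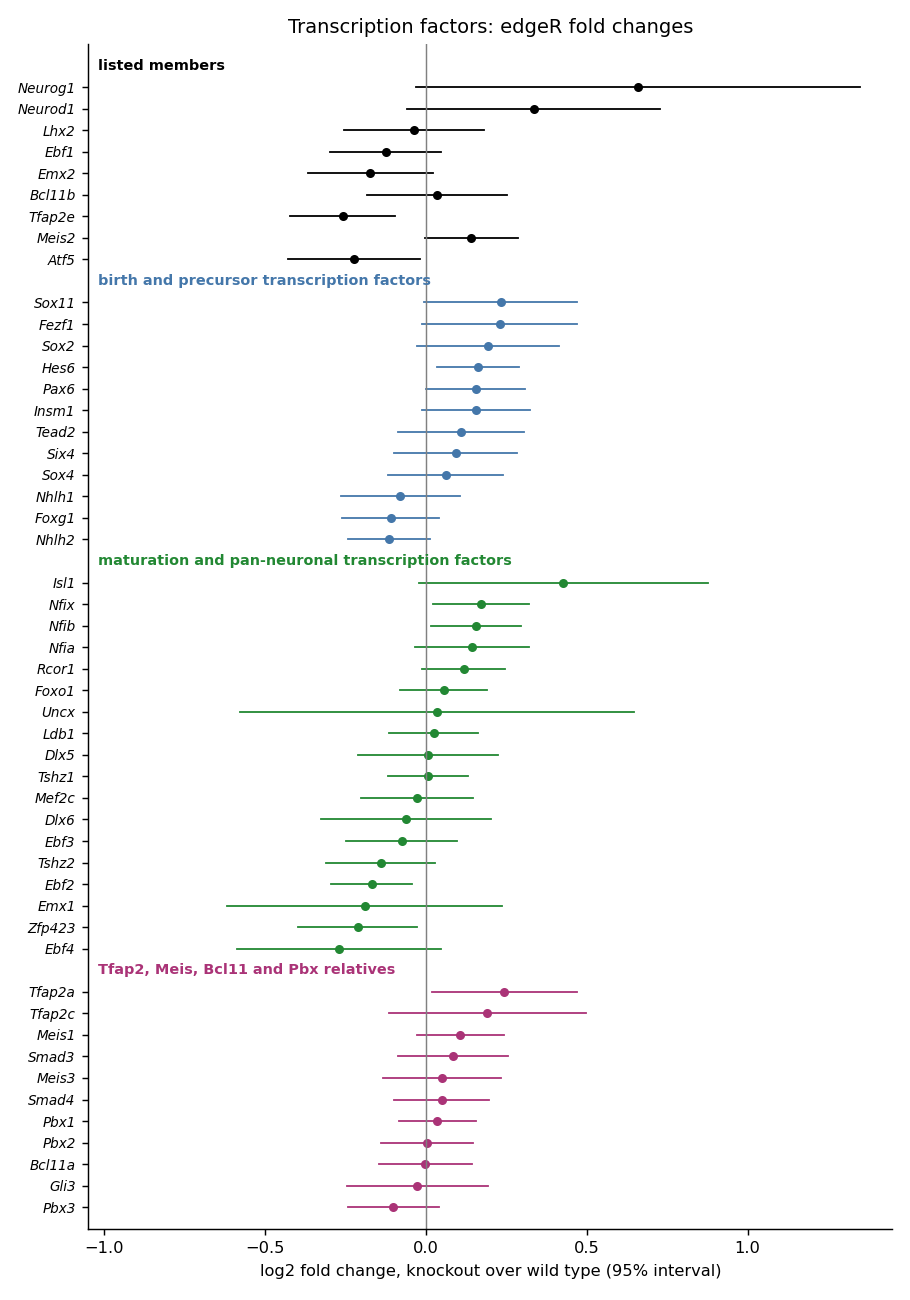
Log2 fold change, knockout over wild type, with its 95% interval (horizontal axis) for the 9 members and for other transcription factors tested (2 of the birth and precursor list are not shown), by list and, below the members, in order of size. The interval of Tfap2e runs from -0.42 to -0.10 and that of Neurog1 from -0.03 to 1.35, and no gene shown passed the threshold over all genes.

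Members with several annotated transcripts divided their reads among them with shares that overlapped between the genotypes. Of 45 transcripts of the members in the files, 16 held at least 10% of their gene's reads in some library. Neurog1, Neurod1 and Tfap2e have 1 transcript each, and Atf5-201 held at least 99.4% of the Atf5 reads in each library. Lhx2-201 held 89.3% ± 1.49 of the Lhx2 reads in wild type and 90.9% ± 1.60 in the knockout (SD, n = 3 each). For Ebf1-201 the shares were 83.3% ± 2.44 and 83.9% ± 0.971, for Emx2-201 72.7% ± 2.95 and 73.7% ± 5.54, and for Bcl11b-201 87.9% ± 3.49 and 88.8% ± 1.55 (SD, n = 3 each). Meis2 reads were spread over 4 main transcripts. Meis2-206 held 28.5% ± 3.85 in wild type and 27.2% ± 5.89 in the knockout, Meis2-203 27.9% ± 1.26 and 27.1% ± 1.47, and Meis2-201 18.7% ± 1.67 and 19.2% ± 2.05 (SD, n = 3 each). The 3 transcripts that are the only one of their gene were not tested. For each of the other 13 the genotypes overlapped (two-sided exact permutation p from 0.4 to 0.9, adjusted p = 0.9 over the 13), in a design that cannot go below 0.1. These shares are estimates, since the transcripts of a gene share most of their sequence.

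**Figure D5:**
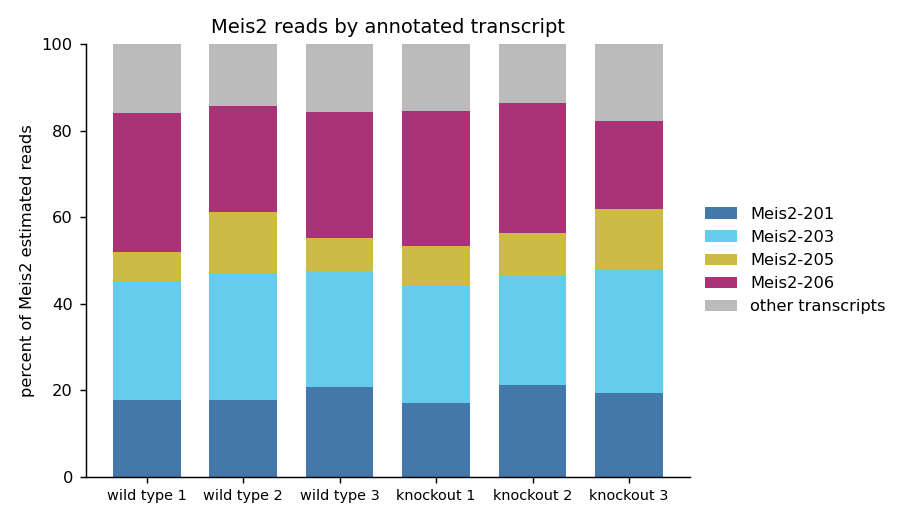
Percent of the estimated Meis2 reads (vertical axis) given to each annotated transcript in each library (horizontal axis). Meis2-203 stays between 25.6% and 29.2%, and the genotypes overlap for every transcript shown.

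Most of the sequence of each member occurs in no other quantified gene. The percent of a gene's 31-mers found in no other quantified gene was 100 for Neurog1, Emx2 and Tfap2e, over 99 for Lhx2, Ebf1, Bcl11b and Meis2, 97.2 for Atf5 and 93.6 for Neurod1. Neurod1 shares 172 of its other 31-mers with Cerkl, a neighbour on the same strand that had between 103 and 155 reads per library. Atf5 overlaps Nup62 on the opposite strand, which had between 1662 and 2082 reads, and the libraries were made with a directional kit. Neurog1 lies on chromosome 13 at 56250478 to 56252163, Neurod1 on chromosome 2 at 79452521 to 79456751, Tfap2e on chromosome 4 at 126716006 to 126736240, Meis2 on chromosome 2 at 115863064 to 116065839 and Atf5 on chromosome 7 at 44812256 to 44816658 (GRCm38, GENCODE M21). Lhx2 lies on chromosome 2 at 38339281 to 38369733, Ebf1 on chromosome 11 at 44617317 to 45008091, Emx2 on chromosome 19 at 59458372 to 59465357 and Bcl11b on chromosome 12 at 107910403 to 108003602. Annotated antisense genes such as Emx2os were not among the quantified genes, so the 31-mer comparison does not cover them, and they were not analysed here.

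The gene most like each member was taken as the one whose log2 CPM, centred on its mean over the 6 libraries, differed least from it in root mean square. It was searched among 12476 genes that averaged 5 CPM or more and had reads in every library. The nearest gene was Acot2 for Tfap2e (0.0315), Kmt2e for Meis2 (0.0129), Golga7b for Atf5 (0.0346) and Zbp1 for Bcl11b (0.0384). It was Rnf157 for Lhx2 (0.0256), Jakmip2 for Ebf1 (0.0180), Mapt for Emx2 (0.0242), Cd53 for Neurod1 (0.0974) and Vmn1r-ps14 for Neurog1 (0.159). The members' own spread by the same measure was 0.530 for Neurog1, 0.283 for Neurod1 and between 0.0928 and 0.155 for the others. Among the listed genes, Ebf2 was nearest to Tfap2e (0.0691) and Cdk1, a cell cycle kinase gene, to Neurod1 (0.104) and to Neurog1 (0.319). Among the members, Emx2 and Ebf1 were nearest to each other (0.0587). With 6 libraries and this many genes, such neighbours describe these libraries alone.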

How the data were processed

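RNA was sequenced from the vomeronasal organ of 6 mice, grouped by the genotype in the labels. The authors deposited, per library, an estimated count and a TPM value for 117081 transcripts, per the file headers. The submitters' processing notes name Trim Galore 0.6.6, Salmon 1.9.0, DESeq2 and the builds mm10 and GRCm38. Transcripts were joined by identifier to GENCODE M21 (115942 matched; the 1139 others held 0.304% of reads and were left out), and the estimated counts were added up within 35450 genes, then rounded. The deposited effective transcript lengths (other unit, per the file headers) served only as an offset in one alternative. Genes kept by filterByExpr, 16679, were tested with edgeR 4.0.16 (R 4.3.3; quasi-likelihood, TMM, genotype alone, Benjamini-Hochberg over all genes). Called means an adjusted p under 0.05. The SE is the size of the log2 fold change over the square root of F, with 95% intervals from the fit's degrees of freedom. Ratios and transcript shares were compared by two-sided exact permutation tests (scipy 1.17.1). Alternatives used DESeq2 1.42.0, limma 3.58.1, other scalings, no filter, sex, males only, a replicate block and each library left out. The edgeR step was tested on simulated data. The members and lists were chosen with earlier results of these data known. Named genes are the members, the ratio genes, called list genes, the first 4 others of each list and the nearest genes. The promoter windows reach from 250 bases before to 50 after a RefSeq start. The common biological coefficient of variation was 12.8%. Some genes of the lists are not reported here by name, though they stay in the counts.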

Additional observations from a re-analysis of the deposited data

How the results depend on the processing

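The count of members called was 0 under each of the 15 alternatives, with the smallest adjusted p between 0.0967 (DESeq2) and 0.502 (without wild-type replicate 2). The count over all genes was 127, and it was 401 with DESeq2, 76 in males only and between 69 and 96 when 1 library was left out. Tfap2e, Atf5, Ebf1 and Emx2 stayed below 0 and Meis2, Neurog1 and Neurod1 above 0 under all 15. Lhx2 was 0.04 without wild-type replicate 3 and without knockout replicate 2, with a range of -0.10 to 0.04 over the fits without 1 library, and Bcl11b ranged from -0.04 to 0.13. The log2 difference for Meis2 to Gnai2 was 0.05 in deposited TPM and between -0.07 and 0.04 without 1 library. The other 3 ratios kept their sign under their 8 alternatives. The cause of these changes was not tested. The deviations of same-numbered libraries from their group means had correlations of 0.155, -0.094 and 0.230. Those of different-numbered libraries lay between -0.293 and 0.171. With 3 mice per genotype, these values cannot settle whether the replicate numbers pair the mice. With a replicate block 154 genes and 0 members were called. Neurog1, with 74 to 231 reads per library, is the member with the fewest reads. The part of depth in its wide interval, beside the spread between mice, was not tested.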

Other observations

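With 1 female per genotype, whether the genotype difference of the members depends on sex was hardly testable, and single animals and sex cannot be told apart. The edgeR interaction term gave adjusted p from 0.958 to 0.979 over the 9 members, which does not show that the sexes were alike. The log2 difference between the 2 females lay outside the range over the 4 possible male pairs for 4 of the 9 members (44.4%) and for 56.3% of the 16584 tested genes with reads in every library, so the members do not stand out by this measure.

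Krt15, a keratin gene of basal epithelial cells, rose (log2 fold change 1.01, edgeR adjusted p = 0.0406), with 27.8 CPM on average in the wild types and 55.8 CPM in the knockouts. It was called in 2 of the 6 fits without 1 library, and it was not called with limma-voom, with sex as a term or in males only. The other markers of basal epithelial cells in the list did not pass the threshold, with log2 fold changes of 0.19 for Krt5 (edgeR adjusted p = 0.453) and -0.13 for Trp63 (edgeR adjusted p = 0.714). Trp63 is named here after its values were seen. Over the whole list of 6 supporting and basal epithelial markers the median was 0.11.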
